A study of Mus musculus with 11 samples.

Results

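The comparison described here set virtual memory CD8+ T cells from mice labelled dirty against the same cells from mice labelled clean. Its members are the 6 libraries of the 11 in the series whose titles read Dirty_VM or Clean_VM, 3 of each, and every miRNA row of the deposited count table, with a row that repeated the same miRNA name and the same counts kept once. All of the cells came from mouse spleen, were enriched with CD8a microbeads, and were sorted as CD4-, CD8+, CD49dlo and GFP+. Virtual memory cells (stamped VM in the labels) were the CD44hi fraction of that gate, and the true naive cells (stamped TN) used below for contrast were the CD44lo fraction, with 2 Clean_TN and 3 Dirty_TN libraries. What made a mouse dirty, what the GFP and the stamping mark, and the strain, sex and age of the animals are not given in the labels. Each sample was 10000 sorted cells of over 95% purity, per the labels. No label ties a replicate to an animal, so the p-values given here weigh a difference only against the spread between these libraries. In such bulk samples, fewer cells of a kind and less RNA per cell cannot be told apart.

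Virtual memory cells are CD8+ T cells that carry memory markers although they have not met foreign antigen, and they arise largely under homeostatic cytokines. miRNAs are short RNAs that guide repression of messenger RNAs, mainly by pairing of their seed, bases 2 to 8, with sites in the target. In CD8+ T cells miR-21, miR-155 and the miR-17-92 cluster are known to go up on activation, while let-7 and miR-150 are known as miRNAs of resting cells.

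The mature sequences of the miRNAs on which the results turn are shown first, with the seed in capitals, so that miRNAs of 1 seed can be seen to move together or apart. The first 4 were higher in every dirty than in any clean VM library, and miR-21b, a near copy of miR-21a-5p, was too.
miR-21a-5p: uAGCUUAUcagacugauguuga
miR-361-3p: uCCCCCAGgugugauucugauuugu
miR-186-5p: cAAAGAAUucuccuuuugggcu
miR-1291: aUGGCUCUuacugaagacuagcaguu
miR-21b: uAGUUUAUcagacugauauuucc
The next 5 were lower in every dirty than in any clean VM library.
miR-30a-3p: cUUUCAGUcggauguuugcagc
miR-30c-2-3p: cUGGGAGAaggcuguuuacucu
miR-15a-5p: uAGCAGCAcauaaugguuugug
miR-1943-5p: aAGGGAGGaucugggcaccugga
miR-148a-3p: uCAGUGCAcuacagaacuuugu
The last 5 are a let-7 pair of 1 seed with opposite differences, and 3 miRNAs of the Mir17hg transcript, of which the last has another seed than the other two.
let-7f-5p: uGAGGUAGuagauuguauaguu
let-7g-5p: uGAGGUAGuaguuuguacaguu
miR-17-5p: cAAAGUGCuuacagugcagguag
miR-20a-5p: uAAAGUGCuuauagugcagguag
miR-92a-3p: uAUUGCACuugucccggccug
All are RefSeq mature sequences of build GRCm38.p6, 5′ to 3′, and RefSeq held one for 425 of the 524 miRNAs tested. Counted from 1 at the 5′ end, miR-21a-5p and miR-21b differ at C4U, inside the seed, and at G18A, G21U and A22C. let-7f-5p and let-7g-5p differ at A12U and U18C, outside the seed, and miR-17-5p and miR-20a-5p at C1U and C12U.

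The table held 2128 rows, of which 120 were repeats, and 545 of the remaining 2008 had enough counts to be tested. Clean_VM libraries 1, 2 and 3 totalled 4116012, 10630453 and 10492633 estimated counts, and Dirty_VM libraries 1, 2 and 3 totalled 3093915, 2614396 and 16312004. Between 697 and 876 rows had a count in a VM library, and a count of 0 allowed up to 0.184 to 1.15 CPM (counts scaled to library size), taking 3 counts as the floor and covering counting error only. Depth split both groups: 1 clean and 2 dirty VM libraries held under 5000000 counts (the shallower libraries), so values within each depth class are given for the leading miRNAs. The other libraries entered the test through its common estimate of spread. Over 263 rows, the median SD of log2 CPM within a group was 0.24 in Clean_VM, 0.23 in Dirty_VM, 0.12 in Clean_TN and 0.31 in Dirty_TN. Dirty_TN library 3 lay farthest from the rest of its group, with a median distance of 0.395 on the log2 scale, against 0.174 to 0.347 for the other libraries. Counts of rows called, and the interaction of some miRNAs only, are given with and without it.

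In VM cells, dirty libraries held more miR-21a-5p, miR-361-3p, miR-186-5p and miR-1291 and less miR-151-3p, miR-30a-3p, miR-15a-5p and miR-148a-3p than clean ones, with no overlap between the libraries. None of these differences passed at an adjusted p under 0.05 when all 11 libraries were fitted together. In that fit (edgeR quasi-likelihood, Benjamini-Hochberg), 0 of the 545 rows passed (0%), and the smallest adjusted p was 0.089. At an unadjusted p under 0.05 there were 81 rows (14.9%), 51 higher and 30 lower in Dirty_VM. Libraries of the groups did not overlap for 66 rows that were higher (12.1%) and 49 that were lower (8.99%) in Dirty_VM. The split moved with the scaling: it was 59 higher and 63 lower with DESeq2 size factors, and 89 and 39 with plain library totals. The median log2 difference of all rows was 0.08 with the TMM scaling used here, 0.02 with DESeq2 size factors and 0.19 with library totals, so the sign of a difference of that size depends on the scaling.

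The number of rows called differed between fits. When only the 6 VM libraries were fitted in edgeR, 445 rows were tested, and 7 were called higher (1.57%) and 11 lower (2.47%). The 7 were miR-21a-5p, miR-361-3p, miR-186-5p, miR-1291, miR-20a-5p, miR-30c-5p and miR-191-5p. The 11 were both rows of let-7f-5p, both arms of mir-151, miR-30a-3p, miR-30c-2-3p, miR-15a-5p, miR-148a-3p, miR-1943-5p, miR-1964-3p and the mir-92a-2 row of miR-92a-3p. DESeq2 on all 11 libraries called 22 of the 260 rows to which it gave an adjusted p (8.46%), and 17 of the 18 rows above were among them. Without Dirty_TN library 3, which is in neither VM group but adds to the common spread, edgeR called 26 of 504 rows (5.16%), 10 higher and 16 lower, and that omission was chosen after seeing the data. These 3 fits shared 15 calls. The fit of the VM libraries also rested on single libraries: it called 2 rows without Clean_VM library 3, 3 without Dirty_VM library 1 and 5 without Dirty_VM library 3. Leaving out any of the other VM libraries gave 17 to 25 calls.

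**Figure D1:**
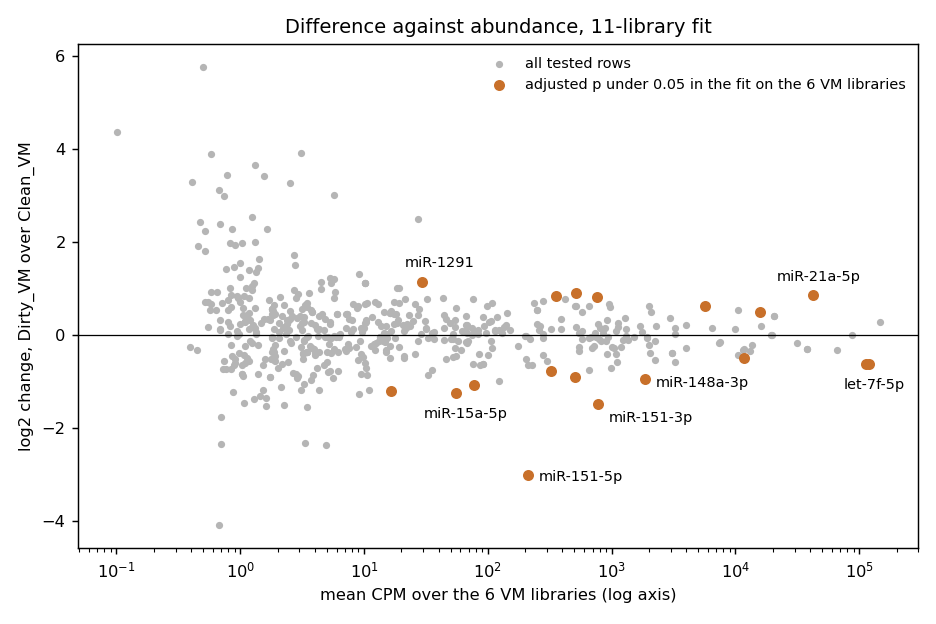
Each point is 1 of the 545 rows, by its mean CPM over the 6 VM libraries (log axis) and its log2 difference between Dirty_VM and Clean_VM in the fit of all 11 libraries. The 18 orange rows passed in the fit of the 6 VM libraries (miR-151-5p is the lowest of them, at -3.01), and most grey rows far from 0 have a low mean CPM.

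miR-21a-5p, which represses Pdcd4 and Spry genes and is known to be induced on T cell activation, had the smallest p of the miRNAs that were higher in dirty VM cells. Clean_VM libraries 1, 2 and 3 held 32735, 26507 and 31136 CPM, and Dirty_VM libraries 54957, 49164 and 59118. Every dirty library was above every clean one, and the means were 1.81-fold apart. The log2 difference was 0.85 ± 0.17 (SE, adjusted p = 0.089 in the edgeR fit of all 11 libraries), and the fit of the VM libraries alone gave an adjusted p of 0.00269. It was 0.67 between the shallower libraries and 1.04 between the deeper ones. Its hairpin lies at chr11:86584067-86584158 (mm10), in an exon of Vmp1. The other arm, miR-21a-3p, was at 5.1, 2.24 and 3.21 CPM in clean and 5.65, 11.5 and 6.79 CPM in dirty libraries, a log2 difference of 1.20 ± 0.45 (adjusted p = 0.209, edgeR). The near copies miR-21b (5.32 ± 0.831 against 13 ± 3.94 CPM, SD, n = 3) and miR-21c (3.17 ± 0.573 against 7.36 ± 2.61 CPM) were higher as well. Reads of such copies can be split between their rows, so these low values are uncertain beside that of miR-21a-5p.

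miR-361-3p comes from an intron of Chm on chromosome X (hairpin at chrX:113074824-113074893). It stood at 601, 505 and 553 CPM in clean and at 946, 1066 and 921 CPM in dirty VM libraries. The groups were well apart, with a log2 difference of 0.82 ± 0.18 (adjusted p = 0.089, edgeR) that was 0.74 in the shallower and 0.80 in the deeper libraries. The other arm, miR-361-5p, was at 683, 585 and 410 CPM in clean and 582, 549 and 642 CPM in dirty libraries, which overlap.

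miR-186-5p comes from a Zranb2 intron (chr3:157544279-157544349). Its levels were 302, 229 and 238 CPM in clean and 498, 447 and 431 CPM in dirty VM libraries, a log2 difference of 0.84 ± 0.20 (adjusted p = 0.0932, edgeR), with 0.64 in the shallower and 0.89 in the deeper ones. miR-1291, from a Kansl2 intron (chr15:98519762-98519878), was far less abundant. Clean libraries held 24.2, 14.5 and 16.8 CPM and dirty ones 33.3, 48.5 and 40.2 CPM. The means were 2.2-fold apart, with a log2 difference of 1.14 ± 0.29 (adjusted p = 0.128, edgeR) that was 0.76 in the shallower and 1.36 in the deeper libraries. Of the 6 miRNAs with the smallest p among those higher, miR-450a-5p was the scarcest, at 0.78 to 1.61 CPM in clean and 2.64 to 6.55 CPM in dirty libraries.

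Among the miRNAs that were lower in dirty VM cells, both arms of the mir-151 hairpin stood out. This hairpin lies in an intron of Ptk2, the gene of focal adhesion kinase, at chr15:73254815-73254882. miR-151-3p was at 880, 1225 and 1297 CPM in Clean_VM libraries and at 293, 500.5 and 427 CPM in Dirty_VM libraries. Its log2 difference was -1.48 ± 0.31 (adjusted p = 0.089, edgeR), with -1.15 in the shallower and -1.56 in the deeper libraries. miR-151-5p was at 362, 445 and 316 CPM in clean and 17.9, 74 and 48.3 CPM in dirty libraries. That is a log2 difference of -3.01 ± 0.84 (adjusted p = 0.201, edgeR), and of -2.98 within either depth class. The fit of the VM libraries alone gave adjusted p-values of 0.00269 and 0.00765 for the 3p and 5p arm.

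The 3p arms of mir-30a and mir-30c-2, hairpins that neighbour each other on chromosome 1 (chr1:23272269-23272339 and chr1:23291701-23291784), were both lower. miR-30a-3p was at 592, 662 and 712 CPM in clean and 311, 399 and 336 CPM in dirty VM libraries. Its log2 difference was -0.91 ± 0.20 (adjusted p = 0.089, edgeR). miR-30c-2-3p was at 112, 105 and 97.3 CPM in clean and 37.8, 68.2 and 44 CPM in dirty libraries, a log2 difference of -1.07 ± 0.29 (adjusted p = 0.136, edgeR). Their log2 differences within the shallower and deeper libraries were -0.74 and -1.03 for miR-30a-3p and -1.08 and -1.20 for miR-30c-2-3p. The 5p arms carry the seed of the miR-30 family. miR-30a-5p was at 1658, 697 and 1322 CPM in clean and 600.1, 1162 and 496 CPM in dirty libraries, which overlap. Its log2 difference was -0.70 ± 0.34 (adjusted p = 0.377, edgeR), with -0.91 in the shallower and -1.03 in the deeper libraries. miR-30c-5p, which 2 hairpins encode, was higher without overlap, at 4092 to 4953 CPM in clean and 5956 to 7842 CPM in dirty libraries, with a log2 difference of 0.61 ± 0.18 (adjusted p = 0.164, edgeR).

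miR-15a-5p, a miRNA that restrains the cell cycle and Bcl2, comes from a Dleu2 intron (chr14:61632027-61632110). Clean VM libraries held 93.9, 85.4 and 56.4 CPM and dirty ones 28.9, 33.3 and 36.6 CPM. The log2 difference was -1.25 ± 0.32 (adjusted p = 0.128, edgeR), larger in the shallower libraries (-1.60) than in the deeper ones (-0.95). Its cluster partner miR-16-5p, of the same seed and more abundant, was at 2557 to 4316 CPM in clean and 2302 to 3016 CPM in dirty libraries, which overlap. miR-16-5p is also encoded in Smc4, so its level does not report the Dleu2 hairpin alone. Of the 3p arms, miR-16-1-3p, from the Dleu2 hairpin, was lower without overlap (log2 difference -0.46). miR-16-2-3p, from the Smc4 hairpin, was higher without overlap (0.79). So was miR-15a-3p, the other arm of the mir-15a hairpin in Dleu2 (1.42), though at a mean of only 0.76 CPM over the VM libraries. miR-1943-5p (a Tmem184b intron) was at 17.2 to 28.9 CPM in clean and 9.22 to 11.2 CPM in dirty libraries. miR-8117 had the last of the 6 smallest p-values among those lower, but its libraries overlap, at 1.61, 9.07 and 6.12 CPM in clean and 0.595, 0.822 and 1.62 CPM in dirty ones.

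miR-148a-3p, which is known to limit Bim in activated T cells, was lower without overlap. It stood at 1790, 2928 and 2620 CPM in clean and 1131, 1380 and 1280 CPM in dirty VM libraries. The log2 difference was -0.95 ± 0.28 (adjusted p = 0.164, edgeR), and the fit of the VM libraries alone gave 0.0206. It was -0.51 between the shallower and -1.12 between the deeper libraries. miR-148b-3p, which shares its seed and differs from it at C9U and U10C, was at 1077 to 1389 CPM in clean and 1029 to 1253 CPM in dirty libraries, which overlap.

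**Figure D2:**
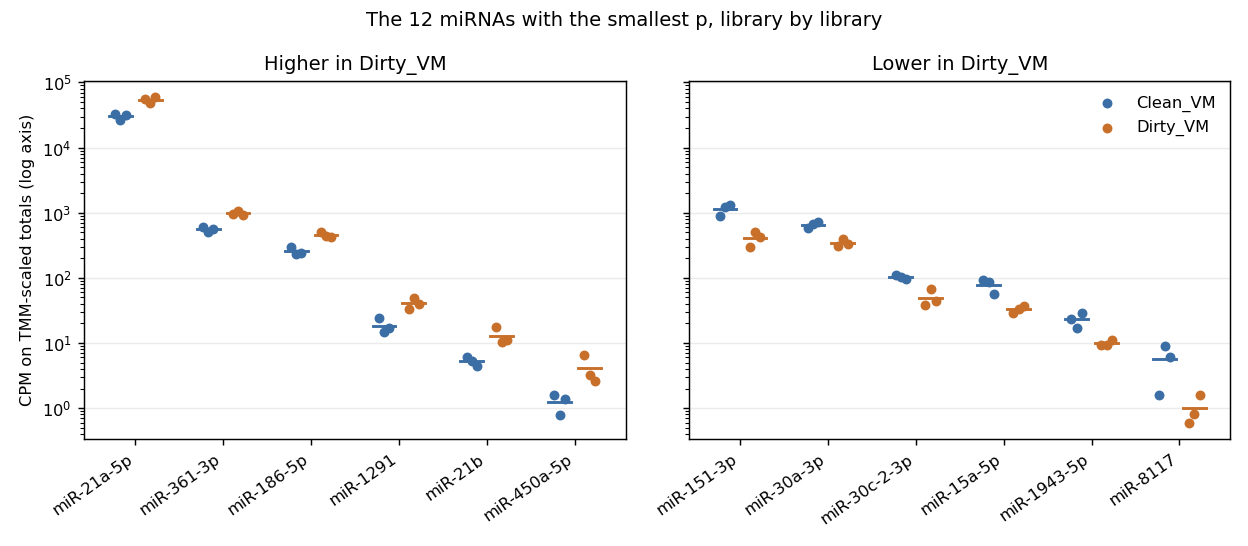
Points are CPM (log axis) of single libraries and bars are group means for the 6 miRNAs of smallest p on each side. Clean and dirty points are apart for all of them except miR-8117, where the lowest clean library (1.61 CPM) lies just under the highest dirty one (1.62 CPM).

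In the most abundant family, let-7, the members differed in opposite directions. let-7f-5p, summed over its 2 hairpin rows, made up 26.8, 26.39 and 26.74% of all miRNA counts in Clean_VM libraries and 18.22, 20.18 and 17.15% in Dirty_VM libraries. let-7g-5p made up 13.35, 12.1 and 12.29% in clean and 17.22, 16.2 and 16.23% in dirty libraries. Both pairs of groups were apart, in opposite directions. The whole family held 55.46% ± 0.97 (SD, n = 3) of the counts in clean and 49.94% ± 2.15 in dirty libraries. How the authors counted a read that matches several hairpins is not given in the sources used here. With only the most abundant row of each miRNA, let-7f-5p held 17.67% ± 0.20 in clean and 11.67% ± 1.11 in dirty libraries, and let-7g-5p 16.17% ± 0.90 and 20.17% ± 0.66. On the CPM scale let-7f-5p had a log2 difference of -0.63 ± 0.23 (adjusted p = 0.209, edgeR), and of -0.63 and -0.73 within the shallower and deeper libraries. The fit of the VM libraries alone gave an adjusted p of 0.00269. let-7g-5p had a log2 difference of 0.28 ± 0.16 (adjusted p = 0.424, edgeR).

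Of the 10 let-7 family members tested, 8 lay below 0, and with library totals 6 did, since let-7e-5p and miR-98-5p turned. On the CPM scale, libraries did not overlap for 3 that were lower (let-7f-5p, let-7b-5p and let-7i-5p) and 2 that were higher (let-7g-5p and let-7d-5p). Over all rows 8.99% were lower and 12.1% higher in this way. As shares of all counts, let-7i-5p libraries overlap, at 3.041 to 3.345% in clean and 2.833 to 3.236% in dirty ones. The family's median log2 difference was -0.24, against 0.08 over all rows. No member passed in the fit of all 11 libraries. Outside the family, miR-21a-5p held 2.84% ± 0.23 of the counts in clean and 5.58% ± 0.84 in dirty libraries. miR-26a-5p had 3.33% ± 0.16 and 4.76% ± 0.24. miR-150-5p, which represses Myb in mature lymphocytes, held 8.22% ± 1.62 and 8.90% ± 1.30, with overlapping libraries. So did miR-146a-5p, a brake on NF-kB signalling, at 1.87% ± 0.35 and 2.01% ± 0.40.

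**Figure D3:**
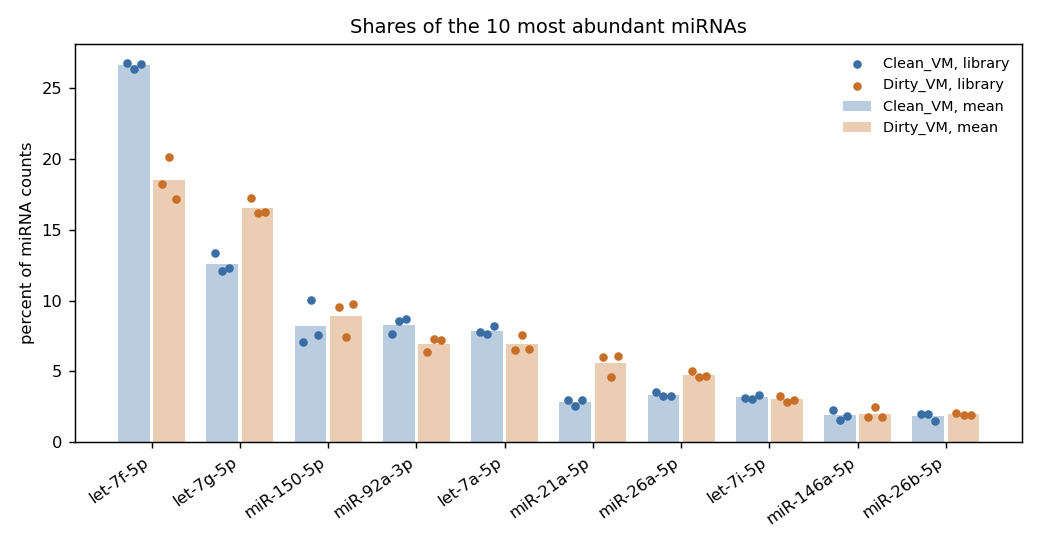
Bars are the mean share of all miRNA counts (percent, rows of 1 miRNA summed) and points are single libraries, for the 10 miRNAs with the most abundant single rows. With rows summed, let-7c-5p (2.44% in clean and 2.11% in dirty libraries, not drawn) ranks above miR-146a-5p and miR-26b-5p. let-7f-5p, let-7a-5p and miR-92a-3p are lower and let-7g-5p, miR-21a-5p and miR-26a-5p higher in each dirty than in any clean VM library. On the CPM scale let-7a-5p libraries overlap, and those of let-7i-5p, which overlap here, do not.

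The miR-17-92 cluster and its paralogs, which drive T cell proliferation and survival, are described by seed. The seed AAAGUGC is shared by miR-17-5p, miR-20a-5p, miR-20b-5p, miR-93-5p, miR-106a-5p and miR-106b-5p. All 6 had a log2 difference above 0 with TMM scaling or library totals, and miR-106b-5p turned below 0 with DESeq2 size factors. The first 5 of these were higher without overlap, as 12.1% of all rows were, and the median was 0.71, against 0.08 over all rows. miR-106a-5p and miR-17-5p differ only at A10U, and reads of such near copies can be split between their rows. miR-20a-5p, at 494, 278 and 307 CPM in clean and 598, 673 and 736 CPM in dirty VM libraries, had a log2 difference of 0.90 ± 0.29 (adjusted p = 0.201, edgeR, and 0.0377 in the fit of the VM libraries alone). It was 0.36 between the shallower and 1.33 between the deeper libraries. For miR-17-5p these values were 0.28 and 1.07, for miR-20b-5p 0.16 and 1.19, for miR-106a-5p 0.42 and 1.02, for miR-93-5p 0.28 and 0.72, and for miR-106b-5p -0.50 and 0.48. All 6 were lower in the shallower class. That class holds 1 clean library and the deeper class 1 dirty one, so depth and single libraries cannot be told apart. miR-17-5p was at 151 to 275 CPM in clean and 329.6 to 375 CPM in dirty libraries.

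The seed AUUGCAC is shared by miR-92a-3p, miR-25-3p and miR-363-3p of these clusters and by miR-92b-3p and miR-32-5p outside them. Of these 5, 4 lay below 0 under each of the 3 scalings and 1 was lower without overlap (8.99% of all rows were), with a median of -0.17. miR-363-3p lay above 0, at 0.25. miR-92a-3p, the most abundant of them, is encoded in Mir17hg and on chromosome X. Its mir-92a-1 row was at 70593, 74039 and 76841 CPM in clean and 49388, 68040 and 59003 CPM in dirty VM libraries. Groups did not overlap, with a log2 difference of -0.33 ± 0.17 (adjusted p = 0.424, edgeR), and the mir-92a-2 row had -0.50 ± 0.20 (adjusted p = 0.244, edgeR). Over all 13 listed members of the cluster and its paralogs, 9 lay above 0 and 4 below. Without overlap 5 were higher and 1 lower, as 12.1% and 8.99% of all rows were. Their median was 0.10, against 0.08 over all 545 rows, of which 307 lay above 0. Of the other seeds, miR-18a-5p had a log2 difference of -0.85 and miR-18b-5p of -0.51, while miR-19a-3p had 0.05 and both rows of miR-19b-3p 0.10, all with overlapping libraries.

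The miR-23/27/24 clusters, which restrain effector and helper responses of T cells, had all 5 members above 0 under each scaling, with a median of 0.26. miR-27b-3p was at 8699, 7744 and 8999 CPM in clean and 11970, 11269 and 13656 CPM in dirty VM libraries. It had a log2 difference of 0.54 ± 0.15 (adjusted p = 0.144, edgeR), and miR-27a-3p, which differs from it at C19U (miR-27a-3p first), had 0.48 ± 0.17 (adjusted p = 0.201, edgeR). miR-24-3p was higher without overlap as well, at 1012 to 1054 CPM in clean and 1085 to 1462 CPM in dirty libraries. The 3 miR-29 members, known to target Tbx21, Eomes and Ifng, lay below 0, with miR-29c-3p turning above it with library totals. Their libraries overlap, as for miR-29b-3p at 75.4 to 137 CPM in clean and 64.9 to 76.2 CPM in dirty ones. In the miR-15/16 family 4 of 6 lay below 0, or 3 with library totals.

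The 14 miRNAs of the T cell activation and memory list showed no common direction that held under every scaling: 10 lay above 0 with TMM and 6 with DESeq2 size factors. Without overlap 4 were higher, miR-21a-5p, miR-132-3p, miR-221-3p and miR-96-5p, and miR-182-5p was lower. Over all rows 12.1% were higher and 8.99% lower in this way, and the list's median of 0.03 compares with 0.08. miR-221-3p, which targets Cdkn1b, was at 321, 352 and 255 CPM in clean and 536, 456 and 586 CPM in dirty VM libraries. Its log2 difference was 0.76 ± 0.24 (adjusted p = 0.201, edgeR). miR-132-3p, a CREB-responsive miRNA, was at 5.82 to 7.8 CPM in clean and 9.91 to 11.9 CPM in dirty libraries. miR-155-5p, needed for effector CD8+ responses, was at 2548, 2716 and 1659 CPM in clean and 1533, 1968 and 1819 CPM in dirty libraries, which overlap. Of the 8 resting lymphocyte miRNAs, 6 lay above 0, or 5 with DESeq2 size factors. The 2 without overlap were higher, miR-26a-5p and miR-191-5p, the latter at 12234 to 14382 CPM in clean and 17146 to 19268 CPM in dirty libraries.

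The miR-181 family, which tunes T cell receptor signalling, had 2 of 4 members higher without overlap, as 12.1% of all rows were, with a median of 0.18, against 0.08 over all rows. The miR-30 family had 2 of 5, miR-30c-5p and miR-30b-5p, and the groups of miR-99 with miR-125 had 0 of 5. Of the imprinted Dlk1-Dio3 cluster 8 of 19 listed miRNAs were tested, and together they stayed at or under 62.4 CPM in each VM library.

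**Figure D4:**
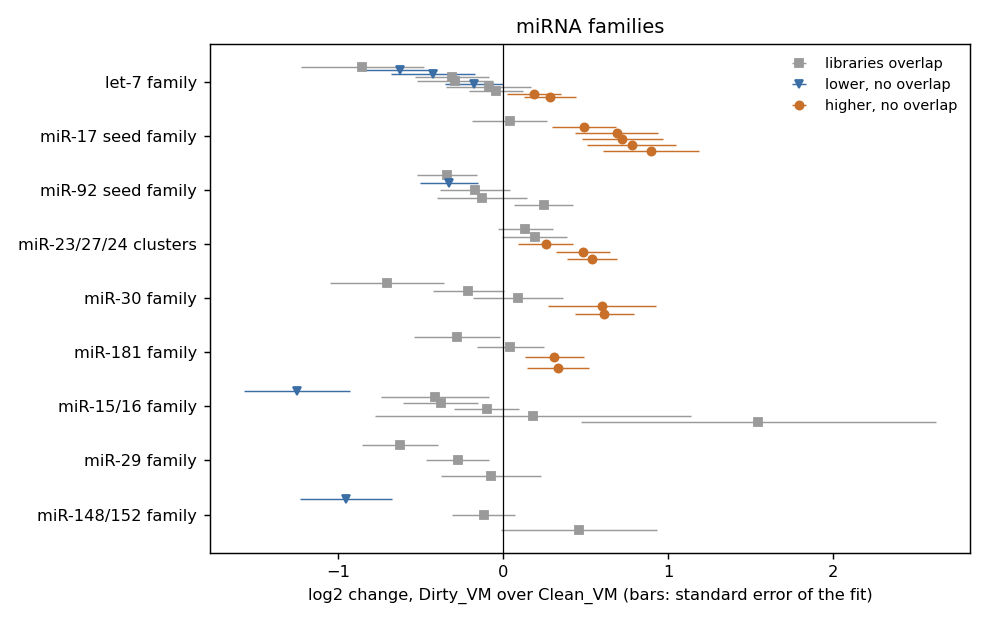
Points are log2 differences between Dirty_VM and Clean_VM of family members and bars their standard error, with colour and shape showing whether the 3 dirty and 3 clean libraries overlap. Members of the miR-17 seed family (median 0.71) and of the miR-23/27/24 clusters (0.26) lie above 0, and the let-7 and miR-92 seed families lie mostly below.

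The arms of 1 hairpin come from 1 transcript, and their differences were compared. Some mature arms, such as let-7f-5p, miR-16-5p and miR-30c-5p, are encoded by more than 1 hairpin. For these, the compared arms need not come from 1 transcript. Of 136 hairpins with both arms tested, 66 had arms with differences of the same sign and 70 of opposite sign, and Pearson's r across hairpins was 0.27 and Spearman's rho 0.032, as a description over arms that share their libraries. Over the 60 hairpins with both arms at 10 CPM or more, r was 0.27 and rho -0.10. For 9 of the 136 hairpins both arms were apart without overlap, 4 with the same and 5 with opposite directions. Over all single rows, 12.1% were higher and 8.99% lower in this way. With both arms at 10 CPM or more, 2 had the same and 3 opposite directions, as mir-15a and mir-466c-1 had scarcer arms. Among the opposite ones, mir-423 had the most abundant second arm. miR-423-5p was at 3320, 3969 and 4435 CPM in clean and 2304, 2545 and 3040 CPM in dirty VM libraries, a log2 difference of -0.57 ± 0.19 (adjusted p = 0.201, edgeR). miR-423-3p was at 2480, 2428 and 2772 CPM in clean and 3037, 3370 and 3551 CPM in dirty libraries, a log2 difference of 0.37 ± 0.16 (adjusted p = 0.273, edgeR). let-7f-2-3p, the scarce arm of a let-7f hairpin, was at 9.65 to 16.9 CPM in clean and 22 to 29.5 CPM in dirty libraries, opposite to let-7f-5p. Base composition moved with the difference across miRNAs. The median GC content was 47.8% for 55 miRNAs that were higher without overlap, 52.4% for 40 that were lower and 48% for all 423 with a distinct sequence, and its part in the results was not tested.

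The same contrast in true naive cells uses other libraries, and 0 of 545 rows passed there, with 38 at an unadjusted p under 0.05 (edgeR). The interaction asks whether the difference between dirty and clean cells differs between VM and TN cells. None of the 545 rows passed (0%), with 93 at an unadjusted p under 0.05 and a smallest adjusted p of 0.0935 (edgeR). Without Dirty_TN library 3, 73 of 504 rows passed (14.5%), 39 with a positive and 34 with a negative interaction. The number of interaction calls thus depended on leaving out that library, a choice made after seeing the data. It also moved with the filter, as given below. DESeq2 was not run on the interaction.

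The values show where the library stands. miR-148a-3p was at 593 and 674 CPM in the Clean_TN libraries and at 1738, 1585 and 750.4 CPM in Dirty_TN libraries 1, 2 and 3. Its interaction was -2.05 ± 0.43 (adjusted p = 0.0935, edgeR), and the adjusted p was 0.00115 without Dirty_TN library 3. miR-151-5p was at 14.9 and 13.9 CPM in Clean_TN and 79.8, 147 and 10.3 CPM in Dirty_TN, and let-7f-5p (row of the hairpin let-7f-2) at 82846 and 95208 CPM against 181772, 142561 and 87152 CPM. In these 3 miRNAs Dirty_TN libraries 1 and 2 were above Clean_TN, while Dirty_TN library 3 was close to it or below, and Dirty_VM libraries were below Clean_VM. miR-361-3p had the reverse order: Clean_TN held 965 and 946 CPM, and Dirty_TN 553, 646 and 825 CPM. Its interaction was 1.32 ± 0.27 (adjusted p = 0.0935, edgeR). For miR-148a-3p, miR-151-5p and miR-361-3p, Clean_VM libraries thus lay on the same side as Dirty_TN libraries 1 and 2. Dirty_VM, Clean_TN and Dirty_TN library 3 lay on the other side, so this order crosses the dirty and clean labels. Its cause was not tested. miR-21a-5p differed in the same direction in both subsets, with 8498 and 10227 CPM in Clean_TN and 11907, 11900 and 14751 CPM in Dirty_TN, a log2 difference of 0.46 ± 0.19 (adjusted p = 0.559, edgeR). Its interaction was 0.40 ± 0.25 (adjusted p = 0.412, edgeR), and the adjusted p was 0.0474 without Dirty_TN library 3. miR-30a-3p had a log2 difference of -0.05 ± 0.23 in TN cells, and its interaction of -0.86 ± 0.31 did not pass (adjusted p = 0.203, edgeR).

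**Figure D5:**
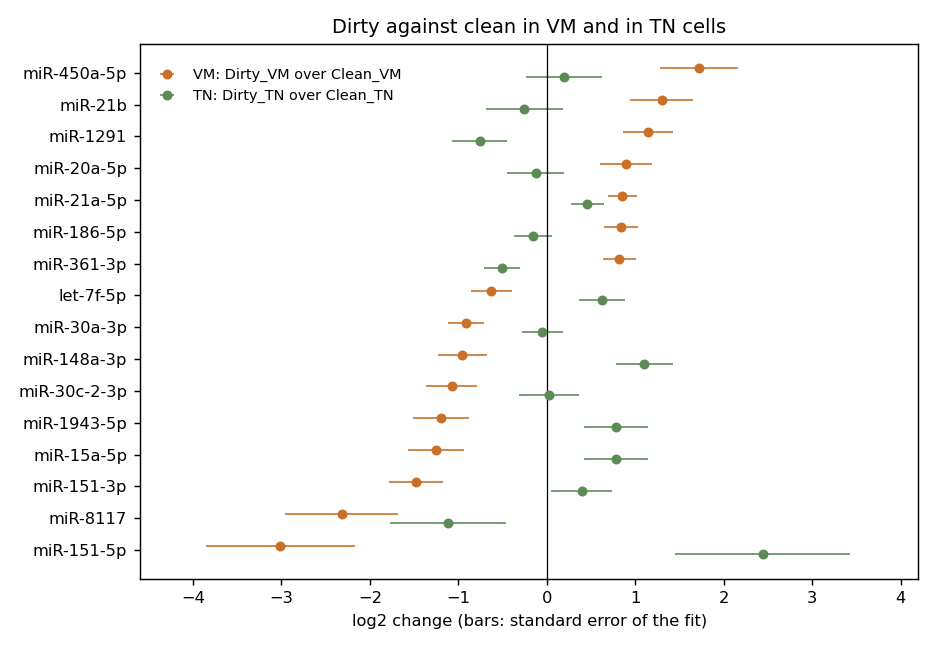
Points are log2 differences between dirty and clean libraries in VM cells (orange) and TN cells (green), with standard errors, for the 12 miRNAs of smallest p in VM cells and 4 further ones. miR-151-5p, miR-148a-3p and let-7f-5p lie below 0 in VM and above 0 in TN cells, and miR-21a-5p lies above 0 in both (0.85 and 0.46).

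miRNAs of other cell types were measured as a check on the sort. Of the resting lymphocyte list, miR-150-5p and miR-142a-3p were present in every VM library, the latter at 1388 to 1778 CPM. None of the 25 tested members of 6 lists for other cells passed, but neither did any of the 545 rows. Of the 25, 1 was lower without overlap and 0 were higher, where 8.99% of all rows were lower and 12.1% higher in this way. It was the epithelial miR-141-3p, at 5.66 to 6.82 CPM in clean and 4.11 to 5.29 CPM in dirty libraries. Of the erythroid list 4 of 5 were tested, with a summed level of 129 to 261 CPM in clean and 122 to 199 CPM in dirty VM libraries, and miR-451a was at 5.37 to 28.1 CPM over both groups. The myeloid miR-223-3p was at 0.268 to 3.12 CPM, with clean and dirty libraries overlapping. The 2 endothelial and platelet miRNAs summed to 21.7 to 47.7 CPM in clean and 29.6 to 53 CPM in dirty libraries. The hepatocyte miR-122-5p stood far higher, at 1215, 2738 and 2575 CPM in clean and 1881, 1239 and 2473 CPM in dirty VM libraries. Its log2 difference was -0.22 ± 0.34 (adjusted p = 0.808, edgeR), and its part in the other results was not tested. The stromal list, 7 of 8 tested, summed to 2963 to 4035 CPM in clean and 2936 to 3835 CPM in dirty libraries, and the epithelial list, 7 of 7, to 2411 to 3276 and 2757 to 3756 CPM. Most of the former was miR-140-3p (2777 to 3937 CPM over the 6 libraries), and most of the latter miR-200b-3p and miR-203-3p, while miR-145a-5p and miR-205-5p reached at most 1.79 and 21.2 CPM. Of the stromal miRNAs 5 lay above 0. miR-199a-3p (mir-199a-2 row) was at 4.56, 8.29 and 6.52 CPM in clean and 20.8, 5.34 and 15.9 CPM in dirty libraries, which overlap, with a log2 difference of 1.12 ± 0.49 (adjusted p = 0.305, edgeR). miR-199b-5p had 2.24, at 0 to 1.44 CPM.

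A further 17 rows, of miRNAs known mainly from testis (miR-34b, miR-34c, miR-449a, and the X-linked miR-465a, miR-465b, miR-465c, miR-470, miR-471, miR-547, miR-741, miR-743a, miR-743b, miR-871, miR-878, miR-881 and miR-883a), were set apart after their values were seen. They summed to 45.4, 0.683 and 1.00 CPM in clean and 197, 62 and 0.601 CPM in dirty VM libraries. In TN cells they summed to 0.364 and 50.3 CPM in Clean_TN libraries 2 and 3 and to 0.771, 283 and 0.813 CPM in Dirty_TN. The 5 libraries of the series with under 5000000 counts thus held 45.4 CPM or more and the other 6 at most 1.00 CPM, in clean and dirty groups alike. miR-34c-5p, the most abundant, was at 26.8, 0 and 0 CPM in clean and 102, 36.2 and 0 CPM in dirty VM libraries. The log2 differences of all 17 lay above 0, from 1.62 to 5.76, with overlapping libraries and a smallest unadjusted p of 0.0926 (edgeR). These rows are part of the counts over all rows given above, and their part in the other results was not tested.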

How the data were processed

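Per the labels' protocols, the NEBNext Small RNA kit turned 60 to 100 ng of RNA into libraries selected for inserts near 18 to 35 bp. The authors deposited an estimated count (an expected count, not always whole) for each mature miRNA and hairpin. Of the values, 88.7% equalled their rounded value. The submitters' processing notes give the build mm10. For aligner and counter, the names are not given in the sources used here. Library totals differ, and no scaling is stated. Counts were rounded, and rows that repeated a name with identical values were kept once. Rows of 1 miRNA from different hairpins stayed separate.

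A filter on low counts (filterByExpr, 4 groups) left 545 rows, 524 miRNAs and 99.991% of the counts. edgeR 4.0.16 (R 4.3.3) fitted 1 mean per group over 11 libraries with TMM scaling (estimateDisp, glmQLFit with robust estimation, glmQLFTest), two-sided, with Benjamini-Hochberg adjustment over all rows and a threshold of 0.05. Standard errors were worked back from the F statistic, as the absolute log2 difference over its square root. Levels are CPM on TMM-scaled totals.

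The rule for named miRNAs took those with an adjusted p under 0.05, a mean of 10 CPM or more and no overlap between libraries. Where fewer than 6 passed in a direction, the 6 with the smallest p were named as not passing. The 10 most abundant miRNAs, the other arms of named hairpins and examples from each list were added, and let-7f-2-3p, miR-21c, miR-1964-3p, mir-423, miR-199a-3p, miR-199b-5p and the testis miRNAs were chosen after their values were seen. The members and the miRNA lists (13 of families and T cell miRNAs, 6 of other cells) were chosen with earlier results of these data known. Alternatives were DESeq2 1.42.0, other scalings, filters and row rules, a replicate block, a depth term, the VM libraries alone and leaving out each library. The code was tested on simulated data. Host genes are from GENCODE M21 and sequences from RefSeq. No column belonged to a sample without labels.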

Additional observations from a re-analysis of the deposited data

How the results depend on the processing

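The comparison was refitted under 29 other settings. Over these, 42 named miRNAs were followed. They were named for smallest p, abundance or as an other arm, or had an unadjusted p under 0.05 in the fit of 11 libraries. Of the 42, 38 kept the sign of their log2 difference under each setting that could fit them. List members with a larger p were not followed, so this count does not cover most rows with a difference near 0. Against 0 rows called in the fit of 11 libraries, 2 were called with library totals, 22 with DESeq2, 16 with no filter beyond 1 count, 3 with a minimum of 10 CPM in 3 libraries, 18 with only the 6 VM libraries and 16 when those were fitted with depth class as a term. Leaving out 1 library gave 0 to 3 calls for VM libraries (3 without Clean_VM library 1), and for TN libraries 5, 3 and 26 without Dirty_TN library 1, 2 and 3 and 0 without a Clean_TN library. Among the 6 VM libraries, leaving out 1 gave 2 to 25 calls. Rows at an unadjusted p under 0.05 numbered 48 without Dirty_VM library 1, against 81. The cause of these shifts was not tested. Interaction calls were 30 with no filter, and 0 to 73 when 1 library was left out (1 without Clean_VM library 1, 73 without Dirty_TN library 3). For TN cells 0 to 28 rows were called, the 28 without Dirty_TN library 3.

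Whether the replicate numbers pair the VM libraries could not be told. Deviations from the group mean correlated at 0.393, -0.563 and 0.535 for numbers 1, 2 and 3, and at -0.808 to 0.643 between unlike numbers. With 3 libraries in a group these deviations are tied to each other, so their correlations cannot decide it. The replicate block gave 0 calls with all 11 libraries and 31 with the 6 VM libraries.

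Among the 42 miRNAs followed, reversals occurred in 4 with a log2 difference near 0. List members that were not followed turned between scalings as well, such as let-7e-5p, miR-98-5p and miR-15b-5p. miR-361-5p had -0.012 with rows summed. miR-26b-5p had -0.043 with DESeq2 size factors and with DESeq2, -0.039 with no filter, -0.016 with the 10 CPM filter, -0.085 with rows summed and -0.017 with the VM libraries alone. It had -0.00780 with the replicate block there, -0.055 with depth class in all libraries and -0.073 with depth class in the VM libraries. Over the first 6 of these settings miR-150-5p had -0.054, -0.054, -0.062, -0.0203, -0.11 and -0.028, and -0.016 with the block in the VM libraries. miR-146a-5p had -0.054, -0.054, -0.038, -0.032, -0.086 and -0.033, -0.0064 and -0.041 with the block in 11 and 6 libraries, and -0.085 and -0.15 with depth class. When 1 library was left out, these 4 miRNAs ranged from -0.082 to 0.25, -0.16 to 0.12, -0.25 to 0.21 and -0.37 to 0.18. Depth limits miRNAs near 1 CPM, where 3 counts are 0.184 to 1.15 CPM.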
